A study of Mus musculus with 16 samples.

Results

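Pax5, Ebf1, Gata3 and Tcf7 are 4 transcription factor genes of the lymphoid lineages. They were chosen by name, with earlier results of these data known. Their chromatin was read in macrophages that had entered injured muscle. These genes are 4 of 21900 protein-coding genes that RefSeq names in the mouse. The members of each locus were the peaks that overlapped the gene span with 10 kb added on each side (its window), 59 of the 320508 peaks in all 16 peak lists. Of these 59, 44 were H3K27me3 peaks, 11 were H3K4me3 peaks, 3 were H3K27ac peaks and 1 was an H3K18la peak.

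The macrophages came from C57BL6J wild type male mice, 8 to 12 weeks old, in which hind limb ischemia was induced by ligating the femoral artery. Cells of the ischemic calf muscle that stained for CD45, CD11b, F4/80 and CD64 were sorted at 2 or 4 days post injury (dpi), and nuclei were profiled by CUT&Tag, which uses an antibody to direct a transposase to a histone mark. For each of 4 marks (H3K27me3, H3K4me3, H3K27ac and H3K18la, lactylation of lysine 18 of histone H3) there were 2 libraries at 2 dpi and 2 at 4 dpi, all from injured muscle, with no uninjured group. The study calls the 2 libraries of a mark and time point biological replicates and describes the marks as profiled on the same samples, but the sources used here do not say which library of one mark shares its cells with which of another, nor whether mice were pooled. The p-values below treat libraries as independent unless a pairing is named. No value of RNA is used here, so whether the genes were silent was not measured, and the marker loci of macrophages and of other sorted cells were not analysed here.

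H3K27me3 is laid down by Polycomb repressive complex 2 and marks genes that are held off in a lineage. H3K4me3 marks promoters, H3K27ac marks active promoters and enhancers, and H3K18la is found at active promoters and enhancers as well. Pax5 keeps B cells committed to their lineage, and Ebf1 acts with it early in B cell development. Gata3 is needed for T cell development and for type 2 helper T cells, and Tcf7 encodes TCF1, a factor of early T cell progenitors and memory T cells that acts in the Wnt pathway. Promoters that hold H3K27me3 and H3K4me3 together are called bivalent, and developmental regulators are their best known examples.

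The positions of the gene spans were given on GRCm39, the build that the labels name for the peak files. With the 10 kb on each side, the window of Pax5 was chr4:44521500-44720500 (minus strand), that of Ebf1 chr11:44498100-44909000 (plus strand), that of Gata3 chr2:9851800-9902800 (minus strand) and that of Tcf7 chr11:52133100-52184500 (minus strand). The given spans were read as gene bodies without the added 10 kb, and shares for the spans alone are given among the alternatives. The ends of the spans are rounded, and exons, introns and single start sites were not placed, since the annotation at hand is of another build. Distances are given from the 5′ end of the span, counted as positive into the gene.

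The promoters of the 4 genes are shown because H3K27me3 peaks lay over the 5′ end of all 4 genes in every library. They are RefSeq sequences of the build GRCm38.p6, whose coordinates cannot be set against the peak positions, and each runs from 250 bases before a transcription start to 50 bases after it. The table held 6 promoters for the 4 genes, and the one with the most CpG dinucleotides is printed for each gene, with every CpG in capitals. None was matched to the 5′ end of a span, and the Ebf1 promoter printed lies downstream of the other Ebf1 promoter in the table.
Pax5, chr4:44710645-44710944, minus strand: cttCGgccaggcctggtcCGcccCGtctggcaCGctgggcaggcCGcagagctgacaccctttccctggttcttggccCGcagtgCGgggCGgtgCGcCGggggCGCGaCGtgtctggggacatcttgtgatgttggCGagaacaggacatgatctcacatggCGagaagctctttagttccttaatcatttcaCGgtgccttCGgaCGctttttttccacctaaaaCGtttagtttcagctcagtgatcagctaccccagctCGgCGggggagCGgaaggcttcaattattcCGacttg
Ebf1, chr11:44619978-44620277, plus strand: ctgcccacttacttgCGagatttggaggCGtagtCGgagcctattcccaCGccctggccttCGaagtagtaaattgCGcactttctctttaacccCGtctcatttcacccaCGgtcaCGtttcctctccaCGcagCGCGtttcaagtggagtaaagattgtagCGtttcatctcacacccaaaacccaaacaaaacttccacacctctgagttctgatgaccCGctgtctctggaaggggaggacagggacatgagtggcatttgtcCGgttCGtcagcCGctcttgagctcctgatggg
Gata3, chr2:9878551-9878850, minus strand: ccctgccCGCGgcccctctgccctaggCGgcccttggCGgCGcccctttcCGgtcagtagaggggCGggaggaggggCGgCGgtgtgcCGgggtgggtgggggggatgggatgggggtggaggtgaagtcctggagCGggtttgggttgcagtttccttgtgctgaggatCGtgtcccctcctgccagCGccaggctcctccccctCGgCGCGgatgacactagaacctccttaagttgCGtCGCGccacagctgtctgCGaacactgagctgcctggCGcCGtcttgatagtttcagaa
Tcf7, chr11:52282965-52283264, minus strand: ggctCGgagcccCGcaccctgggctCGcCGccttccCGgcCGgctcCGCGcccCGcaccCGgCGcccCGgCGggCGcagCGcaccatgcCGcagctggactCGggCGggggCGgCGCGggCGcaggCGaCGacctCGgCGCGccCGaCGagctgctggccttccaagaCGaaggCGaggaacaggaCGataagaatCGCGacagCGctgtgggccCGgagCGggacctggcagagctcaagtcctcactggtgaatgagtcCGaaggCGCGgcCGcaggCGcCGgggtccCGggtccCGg

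Of the sequences printed, that of Tcf7 was the richest in CpG. It held 45 CpG in 300 bases, at the 98.4th percentile of 32841 complete promoters, whereas the Pax5 promoter held 23 (80.0th percentile), the Gata3 promoter 22 (78.5th percentile) and the Ebf1 promoter 17 (70.3rd percentile). The GC content was 76.3% at Tcf7, 67.3% at Gata3, 59.0% at Pax5 and 53.0% at Ebf1. The second promoter of Ebf1 in the table held 9 CpG (56.5th percentile) and the second of Tcf7 held 17 (70.3rd percentile). The rank of Tcf7 thus depended on the start chosen. The Tcf7 sequence printed also holds an atg whose reading frame meets no stop codon up to the end of the sequence. Its CpG and GC values may therefore be partly those of coding sequence. Whether the Tcf7 sequences lie upstream of the gene or inside it was not tested. Neither the PU.1 motif GAGGAAGT, the GATA motif AGATAA, the TCF motif CTTTGAT nor the EBF1 palindrome (TCCC and GGGA spaced by 2 free bases) occurred on either strand in any of the 6 promoters. Over all complete promoters, 3.20% held the PU.1 motif, 11.2% the GATA motif, 3.73% the TCF motif and 0.904% the palindrome.

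H3K27me3 was called at all 4 genes in all 4 of its libraries, and the covered share of the window ranged from 4.28% at Ebf1 to 59.1% at Gata3. The covered share is the percentage of the window that lay under peaks. Over the genome, H3K27me3 was called in all 4 libraries in 45.9% of windows as long as that of Ebf1. The same held for 30.8% at the length of the Pax5 window and 12.2% at those of Gata3 and Tcf7. At the B lineage genes the other marks were nearly absent, with no peak of H3K4me3, H3K27ac or H3K18la over Pax5 in any of the 12 lists of these marks and a single H3K4me3 peak over Ebf1. Windows without a peak of these marks in any list were common. They made up 45.4% at the length of the Pax5 window and 34.9% at that of Ebf1. Among the T lineage genes, Gata3 held H3K4me3 in all 4 of its libraries beside H3K27me3, and Tcf7 held no H3K4me3 or H3K18la peak in any library.

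At Pax5, H3K27me3 covered 15.2% and 14.3% of the 199 kb window in the libraries of 2 dpi and 14.8% and 16.1% in those of 4 dpi (replicates 1 and 2 in this order, here and below). The mean was 15.1% ± 0.742 (SD, n = 4), and the libraries of the other 3 marks were all at 0. At Ebf1, whose window is 411 kb long, H3K27me3 covered 4.30% and 4.10% at 2 dpi and 3.72% and 5.01% at 4 dpi, with a mean of 4.28% ± 0.541 (SD, n = 4). The one H3K4me3 peak at Ebf1 covered 0.333% of the window in replicate 1 of 2 dpi, below every H3K27me3 library.

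At Gata3, H3K27me3 covered 60.5% and 57.4% of the 51.0 kb window at 2 dpi and 57.6% and 60.7% at 4 dpi, a mean of 59.1% ± 1.79 (SD, n = 4). H3K4me3 covered 20.7% and 25.5% at 2 dpi and 28.8% and 19.2% at 4 dpi, a mean of 23.5% ± 4.39 (SD, n = 4), so the 2 marks did not overlap in their shares. H3K27ac was called at Gata3 only in replicate 1 of 4 dpi (9.24%) and H3K18la only in replicate 1 of 2 dpi (2.03%).

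Tcf7 varied most between libraries. H3K27me3 covered 15.1% and 14.9% of its 51.4 kb window at 2 dpi and 20.7% and 27.7% at 4 dpi, a mean of 19.6% ± 6.02 (SD, n = 4), with both libraries of 4 dpi above both of 2 dpi. H3K27ac covered 15.0% of the window in replicate 1 of 4 dpi, which lies within the range of H3K27me3, and 0 in the other 3 libraries.

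**Figure D1:**
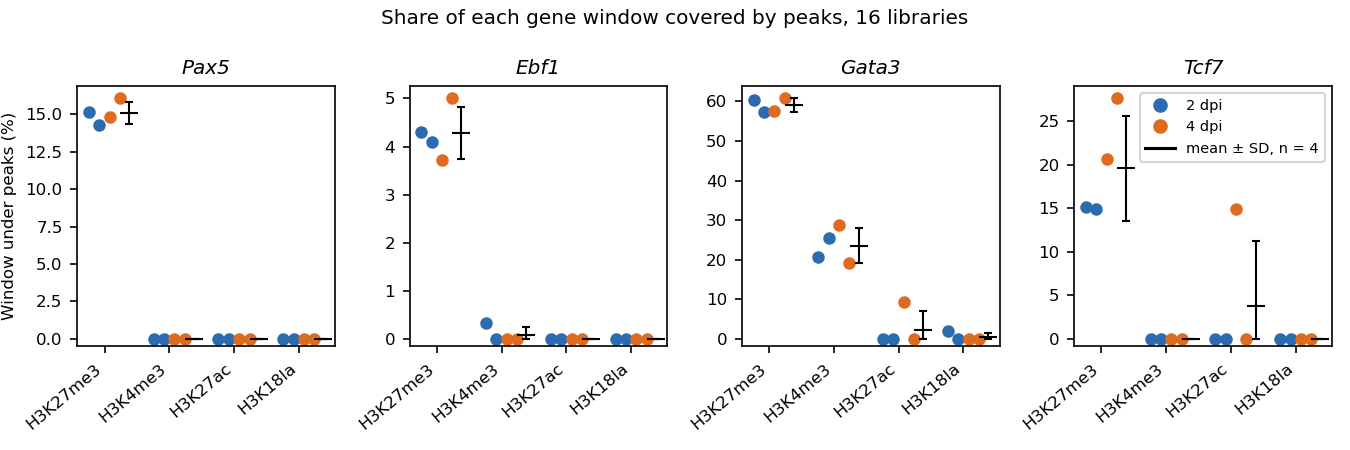
Percentage of each gene window under peaks (vertical axis, one scale per gene) for the 4 libraries of each mark. Points are libraries at 2 dpi (blue) and 4 dpi (orange), in replicate order, and the black bars give the mean ± SD (n = 4), with lower bars stopped at 0. H3K27me3 lies above the other marks at every gene except for 1 H3K27ac library at Tcf7, at 15.0%.

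Each H3K27me3 share was compared with that of each other mark by a two-sided exact permutation test over libraries, 12 comparisons in all, whose smallest possible p is 0.0286 with 4 libraries against 4. No adjustment was made over the 12, and the genes had been chosen with earlier results of these data known. The 12 are not separate tests, since marks at 0 in every library give the same comparison, as all the other marks do at Pax5. In 11 of the 12, all 4 H3K27me3 libraries lay above all 4 of the other mark (exact permutation p = 0.0286 each), with differences of means from 4.20 percentage points (Ebf1, against H3K4me3) to 58.6 points (Gata3, against H3K18la). Gata3 exceeded its own H3K4me3 by 35.5 points. With libraries of 2 marks paired by time point and replicate number, none of these 11 passed (exact sign-flip p = 0.125 each, the smallest that 4 pairs allow), while H3K27me3 was higher in 4 of 4 pairs.

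Such a separation was common enough over the genome that it has to be read against windows of the same length. Of windows as long as that of Pax5, 22.6% had all 4 H3K27me3 libraries above all 4 of H3K18la, 19.9% above H3K4me3 and 11% above H3K27ac. For the length of the Ebf1 window the shares were 29.2%, 25.0% and 10.9% in the same order. For the length of the Gata3 window they were 10.8%, 9.98% and 7.53%, and for that of Tcf7 10.8%, 10.1% and 7.57%. Only a window with H3K27me3 in all 4 libraries can separate. Such windows made up 30.8% at the length of Pax5, 45.9% at that of Ebf1 and 12.2% at those of Gata3 and Tcf7. Most of them separated from H3K18la and from H3K4me3 at every length, so these tests add little to the presence of H3K27me3 itself.

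The exception was H3K27me3 against H3K27ac at Tcf7, where the difference of 15.9 points did not pass the test (exact permutation p = 0.0571, n = 4 and 4). Without replicate 1 of H3K27ac at 4 dpi the difference was 19.6 points (exact permutation p = 0.0286, n = 4 and 3). That library stood apart from the others of its mark, with 35971 peaks over 205 Mb, whereas the other H3K27ac lists covered 37.8 to 65.3 Mb.

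The lists differ in length and give no read counts, so depth is unknown. Peak numbers were lowest for H3K27me3 (12060 to 14836 per library), followed by H3K4me3 (16446 to 18413) and H3K18la (15190 to 27578), and were highest for H3K27ac (24976 to 35971). Covered length of H3K27me3 was 52.1 and 61.0 Mb at 2 dpi and 79.8 and 80.9 Mb at 4 dpi. An absent peak means only that the caller reported none, and a mark held by some of the sorted cells cannot be told apart from a weaker mark on all of them.

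The amount of H3K27me3 placed Gata3 far out among windows of its length, and Ebf1 much less so. Only 0.409% of 53328 windows had a mean H3K27me3 share as high as Gata3, against 3.98% for Tcf7, 4.12% for Pax5 and 18.7% of 6612 windows for Ebf1. Windows with H3K27me3 in all 4 libraries and no peak of the other 3 marks in any, as at Pax5, made up 3.37% of windows of its length. A mean over a long gene hides where the mark sits, so the 20 kb centred on the 5′ end of each span were examined as well, a choice made after the peaks had been seen.

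Within these 20 kb, H3K27me3 covered 100% at Gata3 in every library, 89.9% ± 2.37 at Pax5, 74.2% ± 4.13 at Ebf1 and 39.3% ± 7.56 at Tcf7 (mean ± SD, n = 4 each). Of 136005 windows of this length over the genome, 0.0382% were covered as fully as Gata3, 0.244% as Pax5, 0.535% as Ebf1 and 2.00% as Tcf7. These windows were laid without regard to genes, and only 6.40% of them held H3K27me3 in all 4 libraries. The 5′ ends of other genes were not compared, so how the 4 genes rank among 5′ ends was not tested. The 20 kb took 75.4% to 100% of all called H3K27me3 bases of the Ebf1 window and 56.3% to 61.5% of those of Pax5. The rest of the Ebf1 window was covered to 0.704% ± 0.533 and that of Pax5 to 6.74% ± 0.722 (SD, n = 4).

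**Figure D2:**
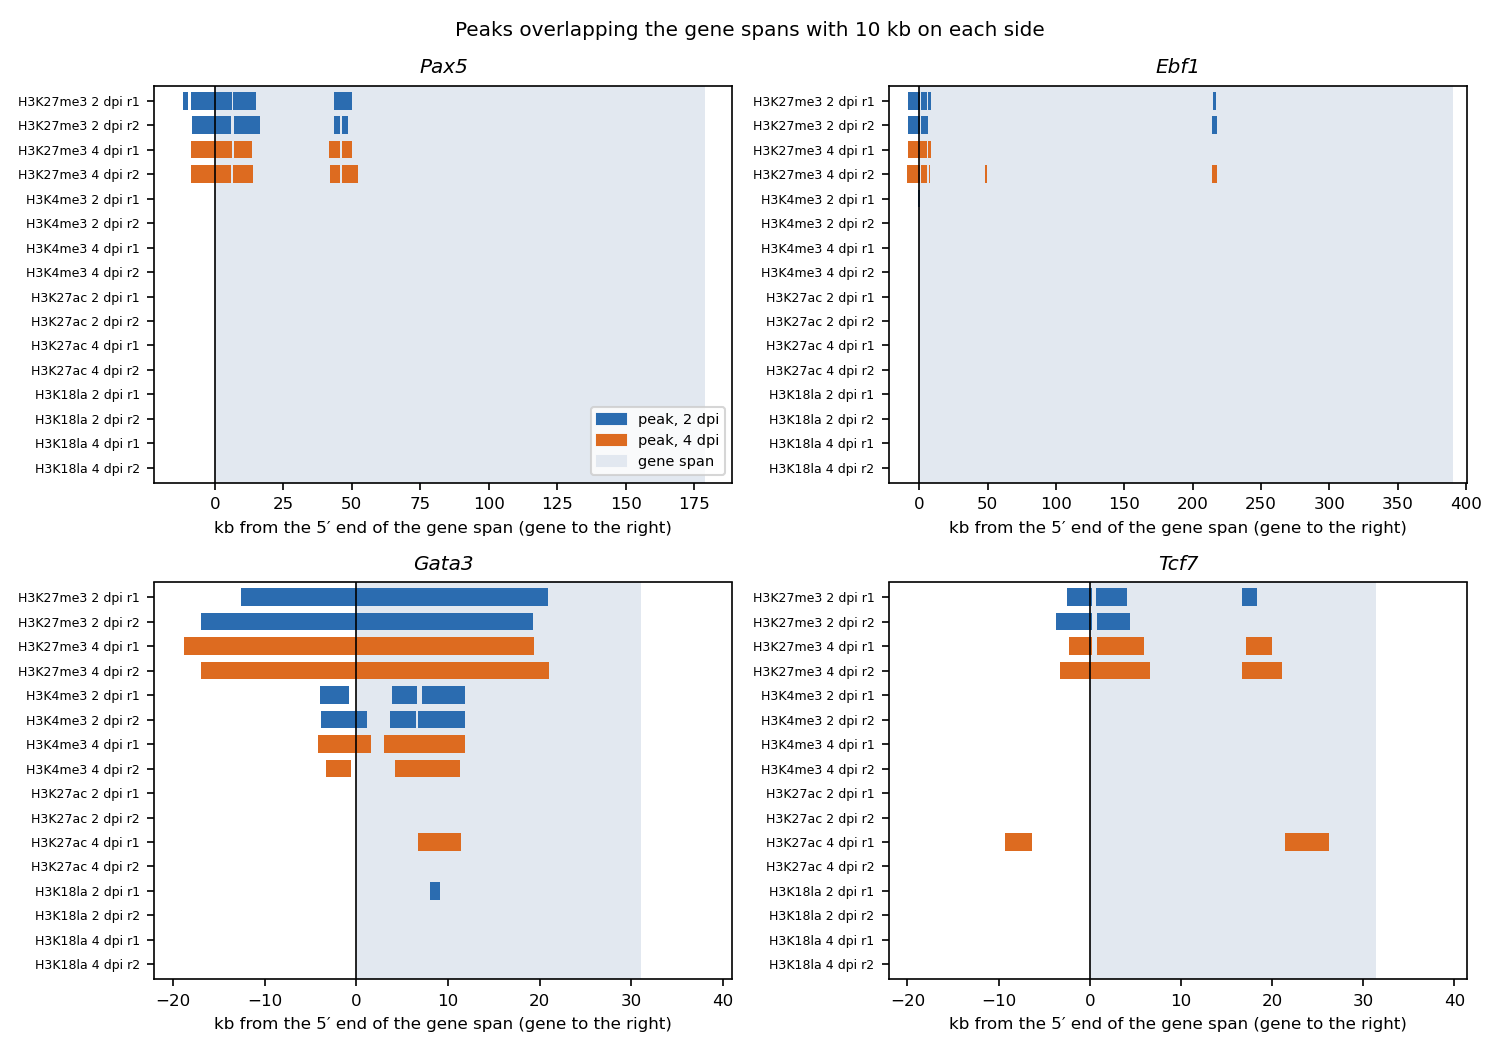
Peaks over each gene window in the 16 libraries (rows, r1 and r2 for replicates) against distance in kb from the 5′ end of the gene span, with the gene to the right on grey. Blue bars are peaks at 2 dpi and orange bars peaks at 4 dpi. H3K27me3 peaks gather at the 5′ end of all 4 genes, and Gata3 alone holds H3K4me3 peaks in all 4 libraries.

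At Pax5 the strongest H3K27me3 peak ran across the 5′ end in every library, from 8.40 to 8.73 kb before it to 6.02 to 6.41 kb inside the gene. It lay at chr4:44704089-44719129 in replicate 1 of 2 dpi and at chr4:44704375-44719234 in replicate 2 of 4 dpi. Its length was 15.0 and 14.4 kb at 2 dpi and 14.8 and 14.9 kb at 4 dpi. Its total signal, which the peak caller sums over the bases of a peak, lay at the 97.7th, 97.9th, 97.7th and 97.8th percentile of its list, so these values differed by little between libraries.

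A second domain of Pax5 began 6.80 to 7.02 kb inside the gene. It was 8.15 and 9.46 kb long at 2 dpi and 6.69 and 7.25 kb at 4 dpi, and its percentile ran from 88.2 to 90.3. Another stretch lay deeper in the gene, between 41.7 and 52.3 kb from the 5′ end, as 1 peak of 6.64 kb in replicate 1 of 2 dpi and as 2 peaks in each of the other libraries. Beyond it no H3K27me3 peak was called over the remaining length of Pax5 in any library. A weak peak of 1.74 kb in replicate 1 of 2 dpi, at the 1.07th percentile, touched the outer edge of the window.

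At Ebf1 the strongest H3K27me3 peak began 7.99 to 9.28 kb before the 5′ end and, in 3 of 4 libraries, stopped 0.481 to 0.742 kb inside the gene. A second peak of 4.13 to 4.92 kb began 1.16 to 1.65 kb inside the gene in those 3 libraries. In replicate 1 of 4 dpi both were called as 1 peak of 13.8 kb at chr11:44500109-44513875. The strongest peak stood at the 96.2nd and 95.5th percentile of total signal at 2 dpi and at the 98.0th and 96.3rd at 4 dpi.

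Farther inside Ebf1 the mark was sparse. A peak of 2.79 to 3.18 kb, 214 to 215 kb from the 5′ end, was called in both libraries of 2 dpi and in replicate 2 of 4 dpi, at the 49.2nd, 36.7th and 26.6th percentile. Replicate 2 of 4 dpi held another peak 47.8 kb inside the gene, at the 0.195th percentile. The one H3K4me3 peak of Ebf1 was 1.37 kb long, at chr11:44507081-44508450, and ranked at the 6.98th percentile of its list. It crossed the 5′ end and lay wholly under the H3K27me3 peak of both libraries of 2 dpi.

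Gata3 lay in one of the strongest H3K27me3 domains of the genome. A single peak covered the 5′ end and most of the gene in each library, and it measured 33.4 and 36.2 kb at 2 dpi and 38.2 and 37.9 kb at 4 dpi. It reached from 12.5 to 18.8 kb before the 5′ end to 19.3 to 21.0 kb inside the gene, whose span is 31.0 kb, and so ran past the window. By total signal it ranked 13th and 20th of the peaks at 2 dpi and 20th and 21st at 4 dpi, the 99.8th to 99.9th percentile. By length it ranked 39th, 56th, 76th and 67th.

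H3K4me3 at Gata3 lay both inside the gene span and at the 5′ end of the span. Start sites were not placed on this build, so which of these positions include a start site of Gata3 was not determined. The stronger stretch lay between 3.04 and 11.9 kb inside the span. At 2 dpi it was called as 2 peaks of 4.66 and 2.71 kb in replicate 1 and of 5.14 and 2.82 kb in replicate 2, and at 4 dpi as 1 peak of 8.86 kb in replicate 1 and of 7.09 kb in replicate 2. Its strongest peak stood at the 97.2nd percentile of total signal in both libraries of 2 dpi and at the 97.7th and 97.3rd at 4 dpi. The peaks of 4 dpi were among the longest of their lists, at the 99.1st and 99.2nd percentile of length.

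The weaker stretch lay from 4.20 kb before the 5′ end to 1.62 kb inside the gene. It was 3.20 and 5.03 kb long at 2 dpi and 5.81 and 2.69 kb at 4 dpi, at the 56.4th, 70.8th, 60.4th and 45.1st percentile of total signal. Replicate 2 of 2 dpi and replicate 1 of 4 dpi reached over the 5′ end, and the other libraries stopped 0.776 and 0.615 kb short of it.

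Every H3K4me3 base called in the Gata3 window lay under H3K27me3, 100% in each of the 8 pairs of libraries of the same time point. In turn, 31.6% to 49.9% of the H3K27me3 bases of the window lay under H3K4me3, which makes this the locus among the 4 where both marks were called in all libraries. In a bulk population of sorted cells, both marks on one nucleosome and the marks in different cells cannot be told apart. The single H3K18la peak of Gata3, 1.04 kb at the 43.1st percentile, and the single H3K27ac peak, 4.71 kb at the 61.2nd percentile, both lay inside the stronger H3K4me3 stretch, between 6.75 and 11.5 kb from the 5′ end. The H3K18la peak came from the longest H3K18la list, with 27578 peaks, and the H3K27ac peak from the library that covered 205 Mb. With lists cut to equal length neither peak remained, and H3K27me3 at Gata3 exceeded each of the 2 marks by 59.1 points.

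Tcf7 had the lowest mean length of the longest H3K27me3 peak and the lowest mean percentile of total signal among the 4 genes, though not the shortest peak in every library. The strongest peak measured 3.40 and 3.67 kb at 2 dpi and 5.22 and 9.87 kb at 4 dpi, at the 75.3rd and 78.5th percentile of total signal at 2 dpi and the 84.5th and 89.5th at 4 dpi. In replicate 2 of 4 dpi it ran across the 5′ end, at chr11:52167869-52177735. In the other 3 libraries it began 0.697 to 0.785 kb inside the gene, and a second peak of 2.54 to 3.98 kb crossed the 5′ end itself.

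A separate H3K27me3 peak lay 16.7 to 21.1 kb inside Tcf7. It was 1.58 kb long in replicate 1 of 2 dpi and 2.88 and 4.36 kb in the libraries of 4 dpi, and was not called in replicate 2 of 2 dpi. The H3K27ac peaks of Tcf7 lay elsewhere, 21.4 to 26.2 kb inside the gene and 6.37 to 9.24 kb before it, and shared no base with an H3K27me3 peak. Both were weak, at the 25.2nd and 0.856th percentile of total signal.

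**Figure D3:**
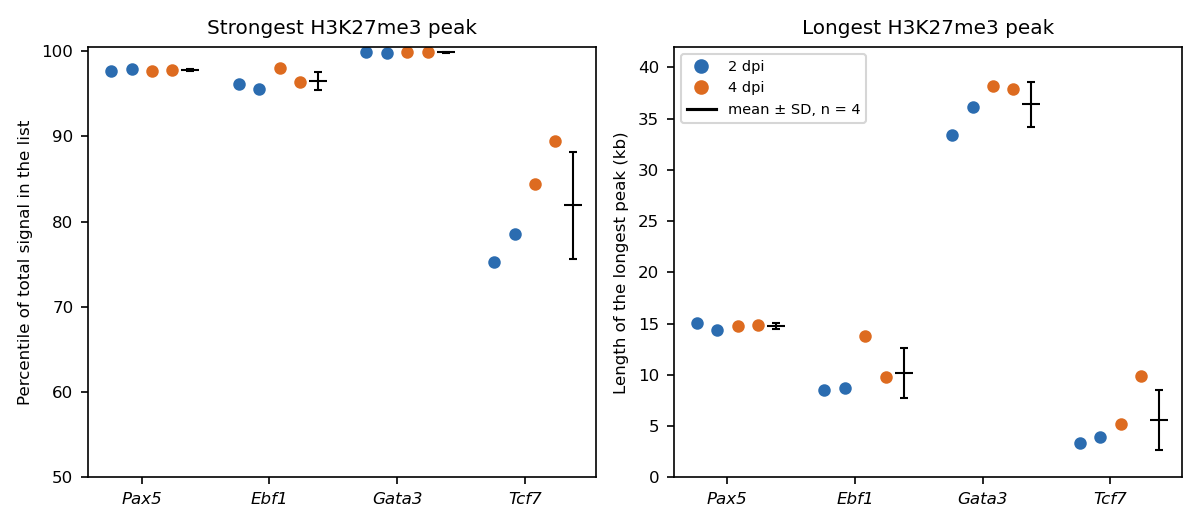
Left, percentile of total signal of the strongest H3K27me3 peak of each gene in its list (axis from 50), and right, length in kb of the longest H3K27me3 peak. Points are libraries at 2 dpi (blue) and 4 dpi (orange) and black bars the mean ± SD (n = 4). Gata3 is highest in both panels, with 33.4 to 38.2 kb, and Tcf7 lowest and most spread in percentile, from 75.3 to 89.5.

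The order of the genes by the length of the longest H3K27me3 peak was Gata3 (36.4 kb ± 2.20), Pax5 (14.8 kb ± 0.259), Ebf1 (10.2 kb ± 2.44) and Tcf7 (5.62 kb ± 2.93, SD, n = 4 each). The ranges of Ebf1 (8.51 to 13.8 kb) and Tcf7 (3.40 to 9.87 kb) overlapped, and those of the other neighbours in this order did not. With peaks joined across gaps of up to 1 kb, the mean length was 20.7 kb at Pax5 and 13.5 kb at Ebf1. By percentile of the strongest peak the order was the same, with 99.9 at Gata3, 97.8 at Pax5, 96.5 at Ebf1 and 81.9 at Tcf7, and the ranges of Pax5 and Ebf1 overlapped. When the highest single coverage of a peak was ranked in place of its total, Pax5 had a mean percentile of 89.0, below Ebf1 at 94.1, and Gata3 was highest at 99.9.

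Outside the windows, the nearest peaks of the other 3 marks lay far from the B lineage genes. Beyond the 5′ end of Pax5 the nearest H3K4me3 peak was 44.8 to 45.1 kb away and the nearest H3K27ac peak 44.9 to 45.5 kb, and on the 3′ side the nearest peak of any of the 3 marks lay 228 kb away. H3K18la was met at 45.0 kb in replicate 1 of 2 dpi, and only at about 302 kb in the other libraries. For Ebf1 the nearest H3K27ac peak lay 34.3 to 70.5 kb before the gene and the nearest H3K18la peak 71.2 to 96.5 kb, and the nearest of these marks on the 3′ side lay 741 kb away.

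Tcf7 had H3K4me3 18.2 to 20.1 kb and H3K27ac 18.2 to 19.3 kb beyond its 3′ end, just outside the 10 kb added to the gene. Its nearest H3K18la peak was 76.0 kb away or farther in every library. Beyond the 5′ end of Gata3 the nearest H3K18la peaks lay 38.2 to 485 kb away and the nearest H3K27ac peaks 28.8 to 77.4 kb.

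Between 2 and 4 dpi, no H3K27me3 region called in all 4 libraries at the 4 genes changed its rank past the test. Some called lengths separated the time points. Counted inside the window, called length did so at Tcf7 alone. The longest peak, taken whole, was longer in both libraries of 4 dpi than in both of 2 dpi at Ebf1, Gata3 and Tcf7, and the Gata3 peak ran past the window. The second domain of Pax5 went the other way, with 8.15 and 9.46 kb at 2 dpi and 6.69 and 7.25 kb at 4 dpi. The median width of all H3K27me3 peaks also separated the time points, with 2924 and 3477 bp at 2 dpi and 3602 and 3788 bp at 4 dpi. By percentile of length within its list, the longest peak of Gata3 stood at 99.7 and 99.5 at 2 dpi and 99.5 and 99.6 at 4 dpi. That of Ebf1 stood at 90.8 and 88.1, then 94.5 and 88.9, and that of Tcf7 at 57.4 and 57.3, then 68.2 and 89.0. How many other peaks separated the time points was not counted. Called H3K27me3 in the Tcf7 window was 7.77 and 7.65 kb at 2 dpi and 10.7 and 14.2 kb at 4 dpi, 1.61 times more on average, without overlap of the time points. The whole H3K27me3 lists covered 1.42 times more at 4 dpi than at 2 dpi. Inside the window, the ratio was 1.05 at Pax5, 1.04 at Ebf1 and 1.00 at Gata3, where the time points overlapped. With 2 libraries against 2 the exact permutation test cannot go below p = 0.333, so these lengths were not tested.

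To test the rank of each region, peaks of the 4 H3K27me3 libraries were merged into 16871 regions, of which 7515 were called in all 4 libraries. Ranks of total signal within each library were turned into normal scores (in SD units of a normal distribution) and fitted with limma. Of the 7515 regions, 67 (0.892%) rose and 4 (0.0532%) fell from 2 to 4 dpi at an adjusted p under 0.05, and 1153 had an unadjusted p under 0.05. The total of 71 ranged from 2, without replicate 2 of 4 dpi, to 487, without replicate 2 of 2 dpi. None of the 6 regions at the 4 genes was among those called, and none had an unadjusted p under 0.05 in limma.

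The Gata3 region scored 2.76 and 2.60 at 2 dpi and 2.72 and 2.69 at 4 dpi, a shift of 0.03 (SE 0.058, 95% interval −0.10 to 0.16, limma adjusted p = 0.844). The Ebf1 region at the 5′ end shifted by −0.02 (95% interval −0.16 to 0.13, limma adjusted p = 0.930) and the Pax5 region across the 5′ end by −0.08 (95% interval −0.23 to 0.07, limma adjusted p = 0.606). The second Pax5 region had a shift of −0.18 (SE 0.104, limma adjusted p = 0.428), and its scores of 0.91 and 0.93 at 2 dpi lay above those of 0.78 and 0.69 at 4 dpi. The deeper Pax5 region shifted by 0.06 (95% interval −0.23 to 0.35, limma adjusted p = 0.852).

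The Tcf7 region across the 5′ end scored 0.67 and 0.78 at 2 dpi and 0.78 and 0.77 at 4 dpi. Its shift was 0.05 (SE 0.109, 95% interval −0.20 to 0.30, limma adjusted p = 0.855). The interval leaves room for shifts as large as 0.30 in normal score. This region held only part of the added called length, with 6.19 and 7.65 kb at 2 dpi and 7.77 and 9.87 kb at 4 dpi. The separate peak deeper in the gene was not called in replicate 2 of 2 dpi, so its rank was not tested.

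**Figure D4:**
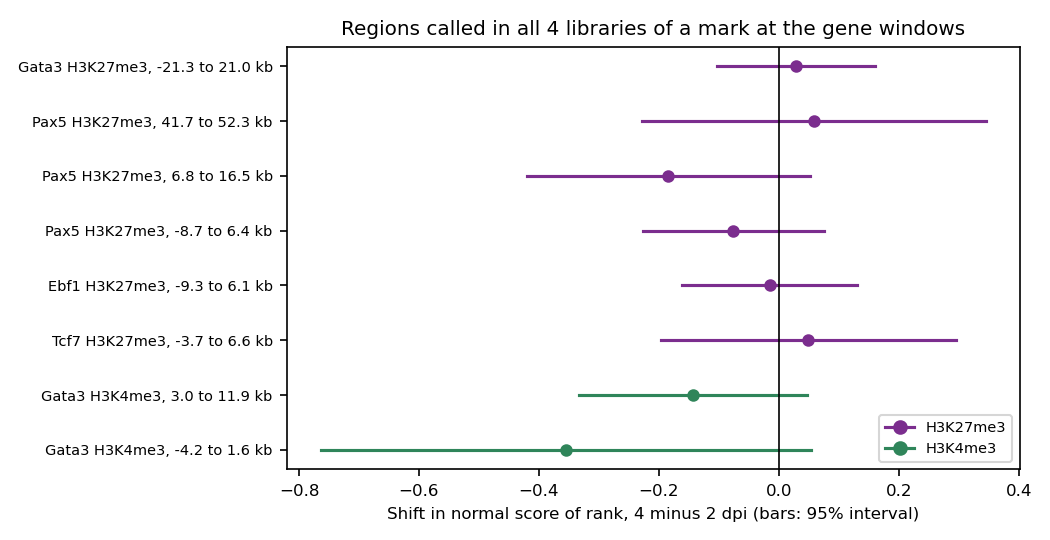
Shift of the normal score of rank from 2 to 4 dpi (horizontal axis, 4 minus 2 dpi) for the 6 H3K27me3 regions (purple) and 2 H3K4me3 regions (green) at the gene windows, with distances from the 5′ end in the row names. Points are limma estimates and bars 95% intervals. All 8 intervals include 0.

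For H3K4me3, 13298 of 19426 regions were called in all 4 libraries, and 1035 (7.78%) rose and 1073 (8.07%) fell. This total of 2108 was 705 without replicate 2 of 4 dpi and 1114 without replicate 1 of 4 dpi, 363 by maximum signal and 5 by signal per called base. The 2 H3K4me3 regions of Gata3 were not among these, and neither had an unadjusted p under 0.05 in limma. The region inside the gene scored 1.93 and 2.00 at 2 dpi and 1.85 and 1.79 at 4 dpi, a shift of −0.14 (SE 0.088, limma adjusted p = 0.282) with no overlap of the time points. On log2 total signal scaled to the median region of each library, the same region shifted by −0.40 (SE 0.103, limma adjusted p = 0.0104), in a fit that called 2820 of the 13298 regions, of which 938 rose and 1882 fell. By maximum signal its shift was −0.10 (limma adjusted p = 0.821), and with only peaks above the median total signal of their list the direction turned, to 0.06 (limma adjusted p = 0.735). The region at the 5′ end shifted by −0.36 (SE 0.189, limma adjusted p = 0.214), with overlapping time points, and the value depended on single libraries. It was −0.57 (limma adjusted p = 0.0144) without replicate 1 of 2 dpi, in a fit that called 2776 of the 13298 regions, but −0.12 (limma adjusted p = 0.737) without replicate 2 of 2 dpi, −0.51 (limma adjusted p = 0.186) without replicate 1 of 4 dpi and −0.18 (limma adjusted p = 0.684) without replicate 2 of 4 dpi. No H3K27ac or H3K18la region called in all 4 libraries of its mark lay at any of the 4 genes, so no fit was made for these marks.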

How the data were processed

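Peak lists of 16 CUT&Tag libraries were analysed. Per the labels, reads were trimmed with Trim Galore 0.6.6 and aligned with Bowtie2 2.4.4 to GRCm39 (the study's methods name mm10 for alignment), and SAMtools 1.13 and bedtools 2.30 were used. The authors called peaks per library with SEACR 1.3 (stringent, threshold 0.01), and the deposited columns hold total and maximum signal of each peak, that is coverage summed over its bases or at its highest point, without scaling between libraries. Signal was therefore compared as percentile or rank within a list (chromosomes 1 to 19, X and Y). The exception was an alternative fit on log2 total signal scaled to the median region of each library. One H3K27me3 pair of 4 dpi is numbered in the opposite order in its file names, and the labels were followed. 

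Covered shares were compared by exact permutation tests in Python 3.11.15 with NumPy 2.4.6 and SciPy 1.17.1. The background is all non-overlapping windows of the same length, laid without regard to genes. Time points were compared with limma 3.58.1 (trended, robust variance, Benjamini-Hochberg adjustment) in R 4.3.3, tested first on simulated data. Genes and lists were chosen with earlier results of these data known. The genes named are the 4 members. The annotation at hand is of GRCm38, so start sites, lists of other lineage genes, marker loci and genes of similar pattern were planned but not analysed here, and promoter sequences come from that build. Same-numbered H3K27me3 and other libraries deviated together with r from −0.0187 to 0.0193 over 20 kb windows. Such values cannot decide whether these libraries share cells, since noise particular to each library would also give a low r.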

Additional observations from a re-analysis of the deposited data

Results flagged for a closer look

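In 4 of the 9 sets of 4 libraries (1 gene and 1 mark each) that held any peak, a single library held all of it and so lay far from the others. Chance flags about 1 in 20 such sets when values vary continuously, and a single value above 3 values of 0 is flagged by construction. The covered shares were 0.333% for H3K4me3 at Ebf1 in replicate 1 of 2 dpi, 2.03% for H3K18la at Gata3 in replicate 1 of 2 dpi, 9.24% for H3K27ac at Gata3 and 15.0% for H3K27ac at Tcf7, both in replicate 1 of 4 dpi. The last 2 come from the library whose peaks covered 205 Mb.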

How the results depend on the processing

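The 12 differences between marks were recomputed with the gene body alone, with 50 kb on each side, with only peaks that lay mostly inside the window, with only peaks above the median total signal of their list, with lists of equal length, without each library in turn, and with libraries paired by number. Apart from the pairing and Tcf7 against H3K27ac, every recomputed value kept its direction and an exact permutation p of 0.0286, but the size moved with the window. With 50 kb on each side the differences were 28.9, 20.3 and 27.1 points at Gata3 and 11.4 and 9.65 at Tcf7 (marks in the order H3K18la, H3K4me3, H3K27ac), and 8.10 at Tcf7 against H3K27ac. For the gene span alone, which applies if the given spans already hold the added 10 kb, they were 11.9 at Pax5 for each mark, 2.37, 2.35 and 2.37 at Ebf1, 64.1, 37.5 and 61.1 at Gata3, and 22.7, 22.7 and 18.9 at Tcf7. Pairing by time point and number (the replicate block) cannot go below p = 0.125 in an exact sign-flip test with 4 pairs, and gave that value with unchanged differences of 15.1 points at Pax5 against each mark, 4.28, 4.20 and 4.28 at Ebf1 (H3K18la, H3K4me3, H3K27ac), 58.6, 35.5 and 56.8 at Gata3, and 19.6 and 19.6 at Tcf7 (H3K18la, H3K4me3). Tcf7 against H3K27ac passed with peaks above the median (15.3 points), with lists of equal length (19.6) and without replicate 1 of H3K27ac at 4 dpi (19.6), each at exact permutation p = 0.0286, and its p was at most 0.0857 with another library left out.

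Leaving out 1 library gave differences of 14.8 to 15.4 points at Pax5 for each mark, 4.04 to 4.47 (H3K18la and H3K27ac) and 3.95 to 4.38 (H3K4me3) at Ebf1, 58.0 to 59.1, 34.1 to 37.3 and 56.0 to 59.1 at Gata3, and 16.9 to 21.2 (H3K18la and H3K4me3) and 13.2 to 19.6 (H3K27ac) at Tcf7. The 71 H3K27me3 regions called between time points became 4 by maximum signal, 0 by signal per base, 2 with peaks above the median and 208 with the replicate number as a block. They ranged from 2 (without replicate 2 of 4 dpi) to 487 (without replicate 2 of 2 dpi), with 20 without replicate 1 of 4 dpi. The cause was not tested. Same-numbered H3K27me3 libraries deviated with r = −0.052. The 6 H3K27me3 regions of the genes passed under none of the 60 recomputations (lowest limma adjusted p 0.344). With 2 libraries per time point and no read counts, small changes could not be detected.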
